A study of Mus musculus with 13 samples.

Results

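Control hippocampi of a mouse amyloid series differed among themselves in genes that mark the septum, and this account compares 3 control libraries rich in Zic1 with 3 that were poor in it. Of the 13 libraries in the series, 6 are controls, and all 6 were used. The 3 with more than 150 raw counts of Zic1 (control replicates 2, 3 and 4) form the Zic1-rich set, and the 3 with fewer (control replicates 1, 5 and 6) form the Zic1-poor set. Raw Zic1 counts were 304, 196 and 299 in the rich set and 86, 105 and 66 in the poor set, so 196 lay just inside the threshold and 105 just outside it. Because the libraries of each set were chosen by these Zic1 counts, every difference between them is given as a description, and tests are read only from the 7 knockout libraries, which had no part in drawing the sets.

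The septum is a midline structure of the forebrain that sits in front of the hippocampus and is joined to it by the fimbria and fornix. Its lateral part holds inhibitory neurons, many of them carrying the zinc finger transcription factors of the Zic family, and its medial part holds cholinergic and inhibitory neurons that project to the hippocampus. The cholinergic cells are marked by choline acetyltransferase (Chat), the transporters Slc5a7 and Slc18a3 and the transcription factors Lhx8 and Gbx1.

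All 13 samples came from hippocampi of male mice at 9 months of age that carried AppNL-G-F, a knock-in of amyloid precursor protein with familial Alzheimer's disease mutations, and Lpcat3 f/f, a floxed gene for the enzyme that places arachidonic acid into phospholipids. The controls had no Cre, and the 7 knockouts also carried vav1-CRE, whose promoter drives Cre in the hematopoietic lineage, so both control sets share genotype, sex, age and allele. Every mouse, control or knockout, was gavaged with tamoxifen in a 20 mg/ml solution at 0.2 mg/g body weight. The labels do not say whether each sample is a separate animal, so the spread between libraries may in part be technical. In bulk tissue, fewer cells of a type and less RNA per cell cannot be told apart.

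The label numbers of the samples fall into 3 runs (3283 to 3288, 3296 to 3300 and 4301 to 4307), and what a run stands for is not given. The rich controls are 3296, 3297 and 3298. The poor controls are 3287 in the first run and 4306 and 4307 in the last. Zic1 set and run therefore cannot be told apart within the controls. The only other library of the middle run is knockout replicate 6 (3300), and its values are given beside the results.

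Depth did not separate the sets. Total counts were 12183608 to 16403770 in the rich set, 13328890 to 14877495 in the poor set and 12159941 to 18322559 in the knockouts, and the mitochondrial share of counts was 1.64 to 1.94%, 1.71 to 1.76% and 1.45 to 1.73%. Hippocampal identity was present in both sets: summed levels in CPM (counts scaled to a common library size with TMM factors over all 13 libraries) were 794 to 895 in the rich and 721 to 798 in the poor set for dentate granule neurons, and 665 to 951 against 783 to 854 for CA1 neurons. Lpcat3 was at 29.9, 28.9 and 25.0 CPM in the rich set and 24.6, 27.5 and 28.9 CPM in the poor set. Among the rich libraries, 2 stood apart from their partners: control replicate 4 in cholinergic genes and control replicate 2 in choroid plexus genes, as described with those groups.

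Across the genome few genes passed adjustment in edgeR, while DESeq2 and limma-voom called more, as given with the alternatives below. Of 17699 genes tested with edgeR's quasi-likelihood test, 22 (0.124%) had a Benjamini-Hochberg adjusted p under 0.05. Of these, 15 were higher in the rich set (0.0848% of genes, Zic1 included) and 7 were lower (0.0396%). Without adjustment, 2025 genes (11.4%) were below p of 0.05, of which 1087 (6.14%) were higher and 938 (5.3%) lower. The 3 rich libraries lay above all 3 poor ones for 1379 genes (7.79%) and below them for 1416 genes (8%), and the median log2 fold change over all genes was -0.01. The 22 calls rested on single libraries: without control replicate 4 there was 1 higher and 0 lower, and without control replicate 6 there were 0 and 0. Without control replicate 1, in contrast, there were 297 higher and 162 lower.

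**Figure D1:**
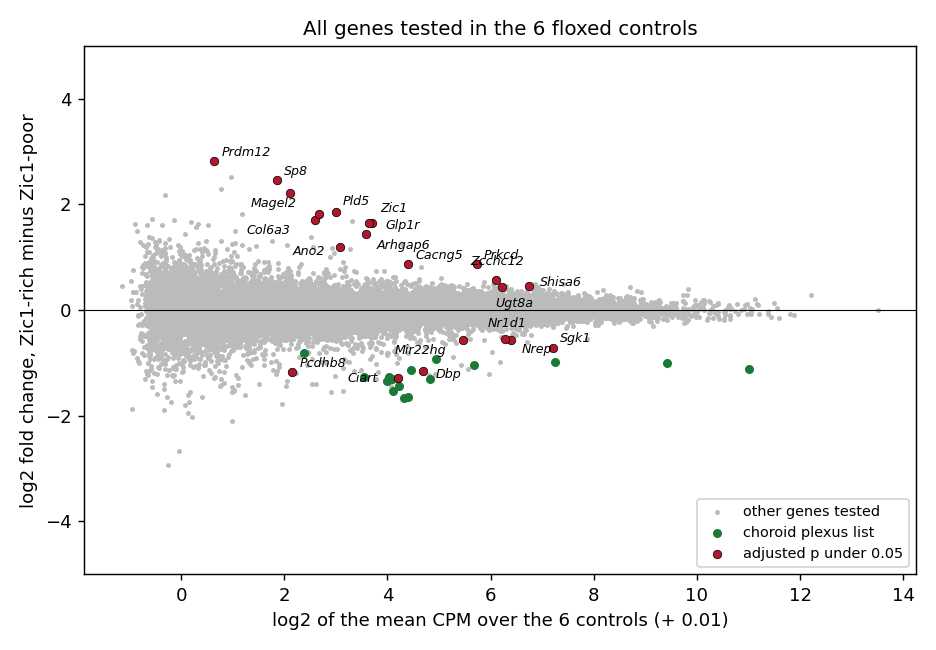
Log2 fold change of each of the 17699 genes tested (Zic1-rich minus Zic1-poor controls) against the log2 of its mean level in CPM over the 6 controls. Red points mark the 22 genes with an adjusted p under 0.05, which reach 2.81 for Prdm12, and green points mark the 16 choroid plexus genes, all of them below 0.

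The Zic genes encode related zinc finger proteins that pattern the dorsal and midline nervous system. Zic1 (ENSMUSG00000032368, chromosome 9) was at 20.7, 12.1 and 24.3 CPM in the rich set, 5.97, 7.77 and 4.45 CPM in the poor set and 3.24 to 6.75 CPM in the knockouts. Its log2 fold change, fixed in direction by the choice of libraries, was 1.65 (SE 0.25). Zic4, its neighbour on the chromosome, was at 11.1, 6.95 and 13.3 CPM against 4.10, 6.22 and 3.71 CPM. The rich libraries again lay above the poor ones, with control replicate 3 the lowest of the rich for both genes, and the log2 fold change of Zic4 was 1.17 (SE 0.25).

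Zic1 and Zic4 lie head to head in RefSeq on GRCm38.p6, with starts 3204 bases apart on opposite strands. The stretches just upstream of each start are shown because these neighbours differed together between the control sets. The window chr9:91365829-91365888, on the minus strand, lies 120 to 61 bases before the Zic1 start, and chr9:91368912-91368971, on the plus strand, is the 60 bases before the Zic4 start. Capitals mark CACGTG, a motif discussed with the clock genes, at position -98 of Zic1.
Zic1: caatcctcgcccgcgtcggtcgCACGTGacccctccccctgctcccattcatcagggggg
Zic4: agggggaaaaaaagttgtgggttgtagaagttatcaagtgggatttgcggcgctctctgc
The window of Zic4 used for the search, 250 bases before to 50 after its start, held no CACGTG.

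Zic2 and Zic5 pointed the same way. Zic2 was at 3.19, 2.64 and 3.66 CPM in the rich set and 1.25, 1.41 and 1.35 CPM in the poor set, with no overlap and a log2 fold change of 1.24 (SE 0.27). Zic5 was at 17.5, 13 and 20.7 against 9.17, 11.2 and 10.4 CPM. Its log2 fold change was 0.74 (SE 0.17), and it did not overlap between the sets either. Zic2, Zic4 and Zic5 were not among the 22 calls.

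Glp1r (ENSMUSG00000024027, chromosome 17), the receptor of the incretin GLP-1 and a gene of lateral septal neurons, was at 21.3, 15 and 23.1 CPM in the rich set and 7.08, 5.70 and 6.28 CPM in the poor set. All 7 knockouts lay between 4.66 and 7.53 CPM, at the level of the poor controls. The log2 fold change was 1.64 (SE 0.18), and with Zic1 it was the only member of the septal list among the calls. Ecel1 (ENSMUSG00000026247), a neuronal membrane protease, was at 16.4, 7.56 and 21.5 CPM against 3.75, 7.40 and 3.10 CPM. Control replicates 3 and 5 were thus almost level, and the log2 fold change was 1.68 (SE 0.35). Slc10a4 (ENSMUSG00000029219), a vesicular protein of cholinergic and monoaminergic neurons, was at 3.19, 1.72 and 5.69 CPM against 1.32, 0.89 and 0.74 CPM, a log2 fold change of 1.82 (SE 0.42).

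Over the septal list as a whole, 16 of 18 genes passed the filter on low counts. Zic1, which set the groups, is left out of the counts here. Of the other 15, 1 (Glp1r) was called higher, against 0.0848% of all genes, 0 lower, and 14 were not called. Positive values were held by 14 of the 15, against 48.8% of all genes tested, and 7 lay above the poor set without overlap, against 7.79%. The median log2 fold change of the 15 was 0.74, 0.31 without control replicate 4 and 0.81 with a choroid plexus score as covariate. Some genes of the list were nearly level: Trpc4 was at 0.11 (SE 0.10) and Meis2 at 0.08 (SE 0.09) on the log2 scale. Crhr2, a receptor of the urocortins, was the member below 0, at -0.05 (SE 0.27). The list and its members were known to differ in these libraries when it was written, so its count is not independent evidence of direction.

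**Figure D2:**
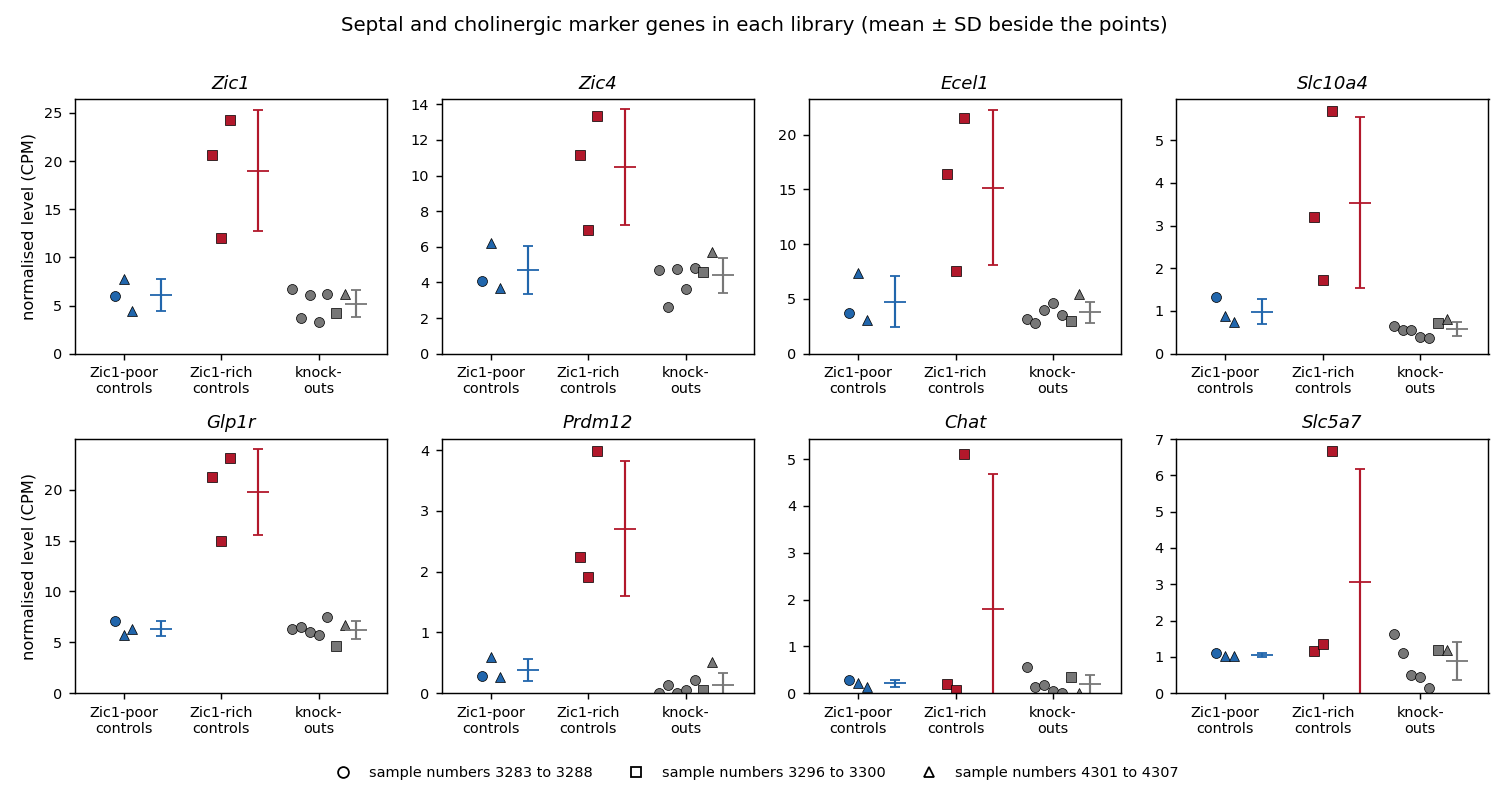
Level in CPM of 8 genes in each library, with the mean ± SD beside the points (n = 3 poor controls, 3 rich controls and 7 knockouts; bars are clipped at 0) and the symbol giving the run of label numbers. Zic1, Zic4, Glp1r and Prdm12 were high in all 3 rich controls and low in the knockout of the same run, whereas Chat and Slc5a7 were high in control replicate 4 alone.

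Several cholinergic genes were high in 1 rich library and not in the set. Chat, the enzyme that makes acetylcholine, was at 5.12 CPM (63 reads) in control replicate 4, at 0.20 and 0.06 CPM in control replicates 2 and 3, and at 0.28, 0.22 and 0.14 CPM in the poor set. The choline transporter gene Slc5a7 was at 6.67 CPM in control replicate 4 and between 1.01 and 1.35 CPM in the other 5 controls. Lhx8 (2.28 CPM, 28 reads), Gbx1 (1.54 CPM, 19 reads) and Slc18a3 (0.98 CPM, 12 reads) had their highest control level in the same library. The summed level of the 10 cholinergic genes was 81.9 CPM there and 48.8 to 52.3 CPM in the other controls.

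Only 5 of these 10 genes passed the filter, and 0 were called. Of the 5, 4 were positive, against 48.8% of all genes, and 3 lay above the poor set without overlap, against 7.79%. The median log2 fold change of the 5 moved from 1.5 to 0.31 without control replicate 4. Slc10a4, given above, and Isl1, a LIM homeodomain factor of cholinergic and striatal neurons, were not high in control replicate 4 alone. Isl1 was at 2.45, 1.72 and 4.31 CPM in the rich set and 0.07, 1.33 and 0.34 CPM in the poor set. All 3 rich controls were thus higher, with a log2 fold change of 2.29 (SE 0.59). Isl1 would not have passed the count filter without its rich-set levels, which favours a positive value. Ache, which breaks acetylcholine down, was level at -0.08 (SE 0.09).

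The genes called higher in the rich set included transcription factors. Prdm12, known from sensory and hypothalamic neurons, was at 2.24, 1.91 and 3.98 CPM against 0.28, 0.59 and 0.27 CPM, with a highest level of 0.52 CPM among the knockouts. Its log2 fold change of 2.81 (SE 0.45) exceeded those of the other 21 called genes. Prdm12 passed the count filter through its rich-set levels only, which favours a large positive value. Sp8, a zinc finger factor of interneurons and their neuroblasts, was at 6.52, 3.32 and 8.45 CPM against 0.63, 1.55 and 1.15 CPM, a log2 fold change of 2.45 (SE 0.37). The poor-set levels of Sp8 alone would not have passed the count filter, which favours a positive value. Zcchc12, a transcriptional coactivator, was at 78.6, 75.1 and 92.2 CPM against 51.3, 58.9 and 56.0 CPM (0.57, SE 0.09).

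Channels, receptors and signalling genes formed the next group. Ano2, a calcium-activated chloride channel, was at 12.8, 9.47 and 12.8 CPM in the rich set and 5.63, 5.03 and 4.79 CPM in the poor set (1.19, SE 0.17). Cacng5 and Shisa6, auxiliary subunits of AMPA receptors, had log2 fold changes of 0.87 (SE 0.13) and 0.45 (SE 0.08). The knockouts spanned 90.5 to 131 CPM for Shisa6, covering the rich controls at 117, 131 and 124 CPM, and for no other of the 15 genes did a knockout reach the rich range.

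Prkcd, a protein kinase C of lateral septal, thalamic and amygdalar neurons, was at 66.6, 57.5 and 81.5 CPM against 40.0, 36.5 and 36.7 CPM. Its log2 fold change was 0.87 (SE 0.12). Thalamic markers as a list did not follow it, with 5 of 10 tested genes positive and a median of -0.01. Pld5, a phospholipase D family member, and Arhgap6, a GTPase-activating protein, had log2 fold changes of 1.85 (SE 0.24) and 1.43 (SE 0.18). Other calls were the collagen VI gene Col6a3 (1.71, SE 0.27), the imprinted gene Magel2 (1.82, SE 0.30) and the galactosylceramide synthase of myelin, Ugt8a (0.44, SE 0.07). In all 15 genes, Zic1 included, the 3 rich libraries lay above the 3 poor ones, against 7.79% of all genes. Their selection by the same comparison favours this, and for Zic1 the rule fixed it.

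Genes of inhibitory neurons had mostly positive values in the rich set, by a smaller amount. Of 21 tested, 1 (Sp8) was called higher, against 0.0848% of all genes, and 19 were positive, against 48.8%. Above the poor set without overlap lay 8, against 7.79%, and the median log2 fold change was 0.39. In the knockouts 7 of the 21 had a positive slope on Zic1, against 50.3% of all genes. At an unadjusted p under 0.05 in edgeR, 0 rose and 3 fell, against 5.55% and 2.79%. Gad2, a synthase of GABA, was at 186, 174 and 232 CPM against 148, 141 and 135 CPM (0.49, SE 0.10), and the vesicular GABA transporter Slc32a1 was at 0.48 (SE 0.16). The homeobox genes Dlx1, Dlx2, Dlx5 and Dlx6 had values between 0.39 and 0.56, while Pvalb and Vip, which mark separate interneuron classes, were at 0.13 (SE 0.12) and -0.14 (SE 0.18). With a choroid plexus score as covariate, the list's median was 0.15 and 15 of 21 genes were positive. Excitatory neuron genes had a median of 0.03.

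Neuroblasts of the ventricular wall, which migrate toward the olfactory bulb, share Sp8, Sp9 and the Dlx genes with that list. Igfbpl1, a marker of newborn neurons, was at 1.29, 1.17 and 1.46 CPM in the rich set. In the poor set it was at 0.28, 0.37 and 0.20 CPM, a log2 fold change of 2.18 (SE 0.46). It too passed the count filter through its rich-set levels only, which favours a positive value. Dcx, the microtubule protein of migrating neuroblasts, was at 16.2, 18 and 19 CPM against 16.8, 22 and 13 CPM and overlapped. This list was added after values had been seen.

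Striatal projection neuron genes, which the neighbouring striatum expresses strongly, had mostly small positive values. Of 18 tested, 0 were called and 14 were positive, against 48.8% of all genes, and 4 lay above the poor set without overlap, against 7.79%. At an unadjusted p under 0.05 in edgeR, 5 were higher and 1 lower, against 6.14% and 5.3% of all genes. The median log2 fold change was 0.10, and 0.27 with a choroid plexus score as covariate. Drd2, the D2 dopamine receptor, was at 5.78, 3.38 and 5.28 CPM against 1.53, 2.07 and 2.23 CPM (1.31, SE 0.27). The D1 receptor gene Drd1 (0.02, SE 0.19) and the adenosine receptor gene Adora2a (0.15, SE 0.30), which mark the direct and indirect pathway cells, overlapped between the sets. Ppp1r1b, encoding DARPP-32, was at 53.2, 27.6 and 31.6 CPM against 45.6, 65.4 and 53.8 CPM (-0.54, SE 0.19).

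The 7 genes lower in the rich set included 3 of the circadian clock. The clock turns on a daily loop in which CLOCK and BMAL1 (Arntl) activate genes through the E-box CACGTG and the products of Per, Cry, Nr1d1 and Ciart repress them in turn. Ciart (ENSMUSG00000038550, chromosome 3), a repressor of CLOCK and BMAL1, was at 10.7, 11.3 and 10.1 CPM in the rich set and 17.3, 31.9 and 29.8 CPM in the poor set. Dbp, an output factor of the clock, was at 17.4, 15.4 and 15.4 CPM against 24.4, 42.4 and 40.8 CPM. For both genes the rich libraries were tightly grouped and control replicate 1 was the lowest of the poor. The log2 fold changes were -1.29 (SE 0.19) for Ciart and -1.15 (SE 0.17) for Dbp. Nr1d1, the nuclear receptor REV-ERB alpha, was at 66.4, 63.8 and 58.7 CPM against 80.2, 103 and 95.6 CPM (-0.55, SE 0.09).

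The promoter stretches of 3 clock genes are shown because they carry the E-box, which is in capitals and reads the same on both strands. Ciart, chr3:95882264-95882353 on the minus strand, holds it at positions -116, -58 and -44 from its start. Per1, chr11:69098769-69098808 on the plus strand, holds it at -166. Tef, chr15:81802533-81802572 on the plus strand, holds it at -127 and did not differ between the sets. All are from RefSeq on GRCm38.p6.
Ciart: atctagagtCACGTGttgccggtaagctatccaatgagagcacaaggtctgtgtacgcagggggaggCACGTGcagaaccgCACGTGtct
Per1: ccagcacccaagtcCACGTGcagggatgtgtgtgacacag
Tef: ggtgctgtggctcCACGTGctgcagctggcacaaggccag
The letters CACGTG were present in 7.15% of 32851 promoter windows running from 250 bases before to 50 after a start. By gene they were in 8.09% of 27025 genes, in 5 of the 16 clock-list genes with a window, in 2 of 5 called lower and in 2 of 13 called higher. A match is a description of the sequence and not a measured site.

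Across the clock list, added after values had been seen, 19 genes were tested. Of these, 3 were called lower, against 0.0396% of all genes, 0 were called higher and 16 were not called. Negative values were held by 14, against 51.2% of all genes, and 9 lay below the poor set without overlap, against 8%. Per1 was at 31.7, 38.9 and 30.2 CPM against 44.1, 52.0 and 44.6 CPM (-0.47, SE 0.11), and Per3 and Per2 were at -0.29 (SE 0.08) and -0.23 (SE 0.11). Arntl, whose product drives the loop from the opposite phase, was at 45.9, 49.4 and 47.0 CPM against 48.9, 34.3 and 37.8 CPM, a log2 fold change of 0.24 (SE 0.12) with control replicate 1 at the level of the rich set. Tef was at 0.01 (SE 0.08). Without control replicates 5 and 6, which leaves 1 poor library, 0 genes were called lower.

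**Figure D3:**
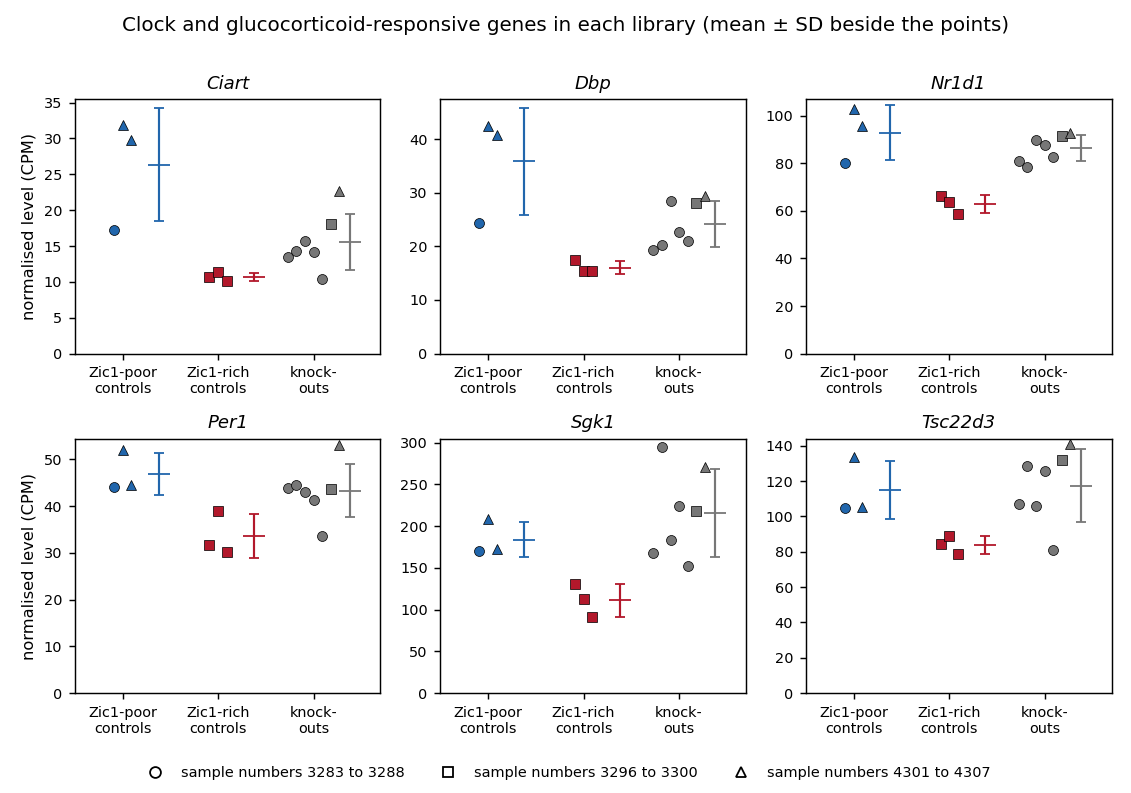
Level in CPM of 4 clock genes and 2 glucocorticoid-responsive genes in each library, with the mean ± SD beside the points (n = 3 poor controls, 3 rich controls and 7 knockouts) and the symbol giving the run of label numbers. The rich controls were below the poor ones for all 6 genes, against 8% of all genes. Knockout replicate 6, of the same run, was above the rich controls for all 6, against 72.4% of genes so separated. The 6 do not stand for their whole lists, in which 5 of 19 clock genes and 7 of 16 glucocorticoid-responsive genes were positive.

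Sgk1, a kinase induced by glucocorticoids and also expressed by oligodendrocytes, was at 130, 112 and 91.0 CPM in the rich set and 170, 208 and 173 CPM in the poor set, a log2 fold change of -0.71 (SE 0.11). All 7 knockouts were above the rich controls, at 153 to 294 CPM. Other glucocorticoid-responsive genes had values of either sign. Tsc22d3 was at -0.44 (SE 0.09) and Nfkbia at -0.39, but Fkbp5, the co-chaperone of the receptor, was at 0.07 (SE 0.08) and the metallothionein Mt1 at 0.38 (SE 0.08). Of 16 genes tested, 1 was called lower, against 0.0396% of all genes, 9 were negative, against 51.2%, and the median was -0.03. In the knockouts 6 of the 16 fell with Zic1 at an unadjusted p under 0.05 in edgeR, against 2.79% of all genes, and 0 passed adjustment. Within the 5 knockouts of the run 3283 to 3288, 3 of the 16 fell at an adjusted p under 0.05, against 0.05% of all genes tested there.

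The other genes lower in the rich set were Nrep, Mir22hg and Pcdhb8. Nrep, a small protein linked to neural regeneration, was at 66.0, 72.8 and 64.1 CPM against 89.5, 116 and 98.4 CPM (-0.57, SE 0.09). Mir22hg, the host transcript of a microRNA, was at 36.0, 34.9 and 36.1 CPM against 49.0, 53.6 and 55.6 CPM (-0.56, SE 0.09). Pcdhb8, a clustered protocadherin, was at 3.06, 2.71 and 2.36 CPM against 6.25, 6.44 and 5.87 CPM (-1.18, SE 0.20). Protocadherin genes have near-identical copies, so its counts are uncertain.

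Choroid plexus, the secretory epithelium of the ventricles, had lower values in the rich set, with their size set by single libraries. All 16 tested genes of the list were negative, 0 were called, and 0 were free of overlap, with a median log2 fold change of -1.26. Summed levels of the list were 5159, 464 and 416 CPM in the rich set and 2924, 6111 and 4028 CPM in the poor set. Control replicate 2 was thus inside the poor range, while control replicates 3 and 4 were far below it. Without control replicate 2, all 16 genes were lower at an unadjusted p under 0.05 in edgeR, as were 1068 of all 17699 genes tested. The median was then -4.03, with only the rich libraries low in this tissue left. Ttr, the transthyretin gene that dominates this tissue, was at 1296, 35.4 and 26.9 CPM against 592, 1281 and 885 CPM. Meningeal and perivascular fibroblast genes were negative in 14 of 14, with a median of -0.45 that was -0.08 without control replicate 5.

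**Figure D4:**
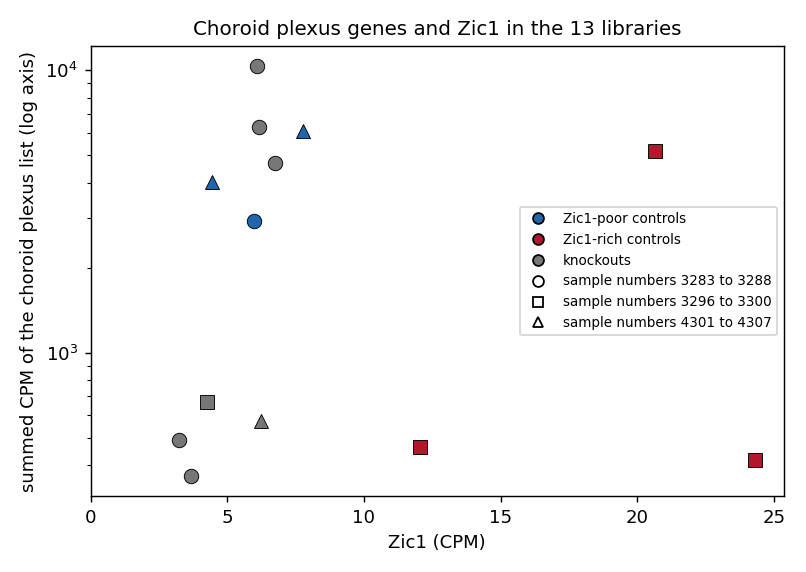
Summed level in CPM of the choroid plexus genes (log axis) against the level of Zic1 in CPM (linear axis) in the 13 libraries, coloured by set and with the symbol giving the run of label numbers. Rich controls lie at 5159, 464 and 416 CPM of choroid plexus genes, poor controls from 2924 to 6111 CPM, and knockouts from 367 to 10318 CPM.

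Ribosomal protein genes had small positive values in the rich set. Of 80 tested, 73 were positive, against 48.8% of all genes, and 0 were called, with a median log2 fold change of 0.32. Above the poor set without overlap lay 48, against 7.79% of all genes, and below it 1, against 8%. Their summed levels were 3278, 2927 and 3170 CPM in the rich set and 2714, 2649 and 2709 CPM in the poor set, so the sets did not overlap. The knockouts spanned 2400 to 3062 CPM. Their slopes on Zic1 pointed the other way, with 3 of 79 positive, 22 falling at an unadjusted p under 0.05 in edgeR (2.79% of all genes), 0 rising and a median of -0.22. Of the shortest 3483 genes by exon length, which include 50 of these 80, 49.8% were positive, with a median of -0.00. The share of positive values varied with exon length over the 5 groups of near-equal size into which genes were split. From the next shortest group to the longest, 36.0%, 43.3%, 52.4% and 62.2% of genes were positive. Their medians were -0.07, -0.03, 0.01 and 0.04. The cause of this variation with length was not tested. Ribosomal protein genes have many processed copies in the genome, which makes their counts uncertain.

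Chaperones of the endoplasmic reticulum were positive in 15 of 18 genes, against 48.8% of all genes, 0 were called, and the median was 0.15. Hspa5, the main chaperone of that compartment, was at 475, 476 and 494 CPM against 405, 340 and 324 CPM (0.44, SE 0.09), and Manf at 31.5, 25.8 and 30.3 CPM against 21.6, 18.7 and 18 CPM (0.60, SE 0.12). Both knockout ranges, 365 to 634 CPM and 18.3 to 28.9 CPM, overlapped both control sets. Imprinted genes were positive in 12 of 15. Beside Magel2, Peg10 was at 9.85, 9.53 and 12.4 CPM against 6.81, 3.85 and 4.45 CPM (1.07, SE 0.21). Both lists were added after values had been seen.

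Microglial genes differed little between the control sets. Of 34 disease-associated microglia genes 0 were called, 26 were negative (51.2% of all genes were) and the median was -0.11. Spp1, osteopontin, was at 22.4, 21.2 and 37.9 CPM in the rich set and 29.0, 52.2 and 70.2 CPM in the poor set (-0.90, SE 0.26). Tyrobp, the adaptor of Trem2, pointed the other way at 0.33 (SE 0.11). Trem2 itself was at -0.12 (SE 0.12). Homeostatic microglia and interferon response genes had medians of -0.04 and -0.09. Oligodendrocyte and myelin genes, of which Ugt8a is a member, had a median of -0.03 and 8 of 21 positive.

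**Figure D5:**
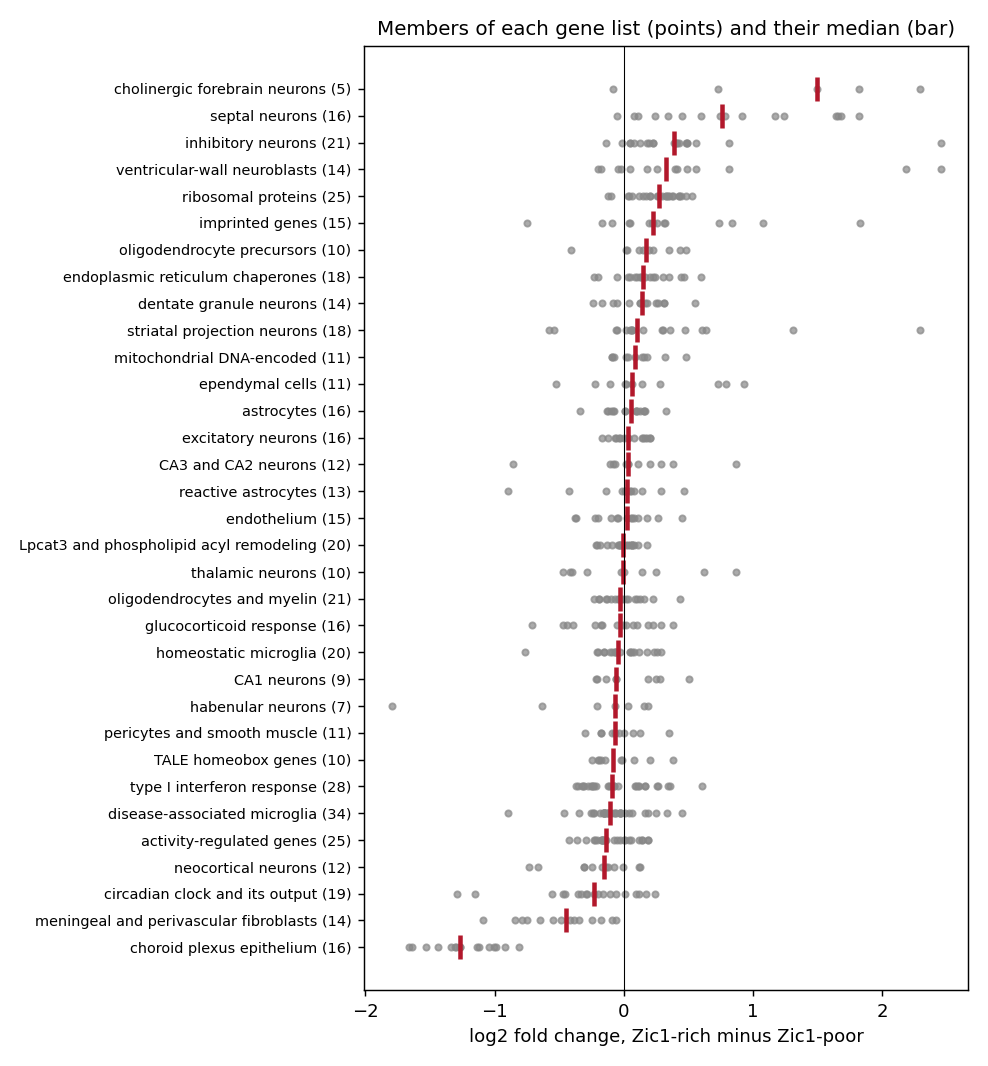
Log2 fold change (Zic1-rich minus Zic1-poor controls) of each tested member of the gene lists with 5 or more tested genes, as grey points, with the median as a red bar and the number tested in brackets. Medians run from -1.26 for choroid plexus to 1.5 for cholinergic neurons, and most lists lie close to 0.

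The knockouts were set beside the rich controls for the called genes. Knockout replicate 6, of the same run as the rich controls, lay below all 3 of them for 15 of the 15 genes called higher and above all 3 for 7 of the 7 called lower. The same held for 74.1% and 72.4% of all genes whose control sets did not overlap. All 7 knockouts lay outside the rich range, on the poor side, for 14 of the 15 and 4 of the 7, against 22.4% and 19.6%. The called genes, Zic1 among the 15, were picked for their separation in these same rich libraries. That choice favours higher shares than among all genes without overlap, so the shares are a description only. Knockout replicate 6 had 4.24 CPM of Zic1, 4.66 CPM of Glp1r and 18.1 CPM of Ciart. That library differs from the rich controls in Cre as well, so genotype and the other differences cannot be told apart from it.

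Whether other genes move with Zic1 outside the libraries that set the groups was tested in the 7 knockouts. There Zic1 spanned 3.24 to 6.75 CPM (53 to 99 reads), and no knockout reached the rich range of 12.1 to 24.3 CPM. The slope therefore covers only levels within or below those of the poor controls, and cannot test the difference between the control sets. In edgeR's quasi-likelihood test of the slope on log2 CPM of Zic1, 0 of 18375 genes (0%) had an adjusted p under 0.05. Without adjustment, 1532 genes (8.34%) were below p of 0.05, of which 1019 (5.55%) rose with Zic1 and 513 (2.79%) fell, and DESeq2 called 53 and 5. The count rested on knockout replicate 7, without which edgeR called 346 rising and 12 falling genes. Of the 13 genes called higher in the rich controls that could be tested in the knockouts, 7 had a positive slope. Of the 7 called lower, 1 had a negative slope. Over all genes tested in both fits, 41.7% had the same sign.

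The Zic genes were partly alike in the knockouts. The slope, in log2 units per log2 unit of Zic1, was 0.64 (SE 0.25, unadjusted p = 0.020) for Zic4 and 0.45 (SE 0.25, unadjusted p = 0.095) for Zic5 in edgeR, and neither passed adjustment. Zic2 had a slope of -0.26 (SE 0.37). Genes well separated in the controls had slopes of 0.26 (SE 0.21) for Glp1r, 0.12 (SE 0.30) for Ecel1 and -0.86 (SE 0.42) for Sp8. Of 15 septal genes tested, 3 rose at an unadjusted p under 0.05 in edgeR, against 5.55% of all genes, Zic4 and Crhr2 among them. Trpc4 was the 1 that fell, against 2.79% of all genes. Between the control sets Crhr2 was at -0.05. Ciart, Dbp and Nr1d1 had slopes of 0.08 (SE 0.26), 0.12 (SE 0.20) and 0.05 (SE 0.09).

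In the knockouts, choroid plexus genes had positive slopes on Zic1, while their values in the rich controls were negative. All 16 had a positive slope, against 50.3% of all genes, and an unadjusted p under 0.05 in edgeR, with a median of 4.83, and 0 passed adjustment over all genes. Within the 5 knockouts of the run 3283 to 3288, all 16 rose at an adjusted p under 0.05, as did 1.27% of all genes tested there. Summed levels were 4709, 367, 10318, 491, 6276, 670 and 574 CPM in knockout replicates 1 to 7, so 3 libraries were high and 4 low, and knockout replicate 7 had little choroid plexus RNA beside 6.23 CPM of Zic1. The slope's difference between genotypes was also fitted over 13 libraries by the product of genotype and Zic1. That fit includes the controls that were split by Zic1, so it is given as a description and not as an independent test. The difference passed adjustment for 0 of 19132 genes in edgeR, with 1936 at an unadjusted p under 0.05, and 0 of the 16 choroid plexus genes were called.

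Among genes outside the lists, Plin4, a lipid droplet protein, had a knockout slope of -1.58 (SE 0.27), Eno4, an enolase of ciliated cells and sperm, one of 1.33 (SE 0.24), and Stxbp2, a vesicle fusion protein, one of 0.45 (SE 0.08). The water channel Aqp1, a choroid plexus gene, had a slope of 6.55 (SE 1.2). Nrep, lower in the rich controls, had a slope of 0.43 (SE 0.08), so its direction differed between the comparisons. None of these passed adjustment in edgeR.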

How the data were processed

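Hippocampal RNA libraries were prepared using a poly(A)-primed kit (SMART-Seq mRNA LP), per the labels' protocols. Of tools, the submitters' processing notes list featureCounts 2.0.3, DESeq2 1.36.0, STAR 2.7.10a and R 4.2.0, and of genomes GRCm39, with no role for each. Neither strandedness nor the handling of reads with several matches is given in the sources used here. The authors deposited raw whole-number counts for 56980 Ensembl genes, and symbols were matched by identifier for 52073 of them, holding 99.7% of the counts.

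From these counts, libraries were scaled with TMM, filtered with filterByExpr by set and tested with edgeR 4.0.16 (quasi-likelihood F-test, R 4.3.3), with Benjamini-Hochberg adjustment over all genes tested and a threshold of 0.05. Filtering by set let a gene near the floor in the poor set pass through its rich-set levels, or the reverse, which favours a difference. The knockout slope used centred log2 CPM of Zic1 with a prior count of 2. With 3 libraries against 3, an exact two-sided permutation p cannot go below 0.10, so none is given. No libraries of a group were duplicates: chi-square per gene was at least 2.96. The scripts were tested on simulated data. Promoter sequences are from RefSeq on GRCm38.p6, and chromosomes and exon lengths (98.4% of genes tested) from GENCODE M21.

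The members and gene lists were chosen with earlier results of these data known: 32 lists were written first and 4 were added after values had been seen. Genes named are the septal, cholinergic and striatal list members, up to 15 genes per direction with the largest change among those past the threshold and with a mean of at least 1 CPM, from each list the 2 members of smallest p, Lpcat3 and App, and 5 per direction for the knockout slope. Other examples within lists were chosen after their values were seen, and a few genes that the rule names are not reported here. Alternatives were DESeq2 1.42.0, limma-voom (limma 3.58.1), RLE scaling, other count filters, covariates, other sets of libraries and leaving out each library. The genotype by Zic1 product and the list descriptions under other settings were added after seeing the data.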

Additional observations from a re-analysis of the deposited data

Results flagged for a closer look

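Each library's level was compared with the others of its group, and a library is listed where its gap to the nearest exceeded Dixon's 95% critical value. Of 152 such comparisons 16 were listed, and chance lists about 1 in 20. Among the 6 controls, control replicate 4 was high in Chat (5.12 CPM), Slc5a7 (6.67 CPM), Lhx8 (2.28 CPM), Gbx1 (1.54 CPM), Slc18a3 (0.98 CPM) and the cholinergic sum (81.9 CPM, the next at 52.3 CPM). Control replicate 5 was low in Trpc4 (44.1 CPM) and high in the sums of endothelial (693 CPM), pericyte and smooth muscle (297 CPM) and fibroblast genes (234 CPM). These lists overlap in the cells and tissue they sample, so the entries are not independent of each other.

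Among the 7 knockouts, replicate 1 was high in Nts (5.69 CPM) and Isl1 (0.49 CPM), and replicate 2 was high in Tacr1 (3.55 CPM) and the habenular sum (53.3 CPM). Replicate 6 was high in the blood sum (15.3 CPM, the next at 3.91 CPM), and replicate 7 was high in Prdm12 (0.52 CPM).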

How the results depend on the processing

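Counts of genes are given as higher and lower in the rich controls, against 15 and 7 as reported. They were 116 and 42 with DESeq2 (1616 genes at an unadjusted p under 0.05), 188 and 181 with limma-voom, 223 and 245 with no count filter, 88 and 28 with a myelin score as covariate, 5 and 0 with a choroid plexus score, and 23 and 0 with Zic1 as a continuous covariate. Without the controls numbered 4306 and 4307 they were 15 and 0, and the lone poor library was assumed to vary like the others. A fit of all 13 libraries with Zic1, genotype and run terms gave 0 and 0. RLE scaling gave 15 and 7 and a mean count of at least 50 gave 14 and 7. Leaving out each control in turn gave 0 to 297 higher and 0 to 169 lower genes: 297 and 162 without control replicate 1, 50 and 169 without replicate 2, 25 and 3 without replicate 3, 1 and 0 without replicate 4, 17 and 2 without replicate 5, and 0 and 0 without replicate 6. The cause of these differences was not tested.

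For the knockout slope, reported at 0 rising and 0 falling genes, DESeq2 gave 53 and 5, no count filter 233 and 12, and the 5 knockouts of the run 3283 to 3288 gave 229 and 9. Leaving out each knockout in turn gave 0 to 346 rising and 0 to 12 falling genes, and the count departed from 0 only without knockout replicate 7. RLE scaling, a mean count of at least 50, and the mean of Zic1, Ecel1 and Slc10a4 as covariate gave 0 and 0. Among 1881 values of single genes under alternatives, over 119 genes, 1721 moved by less than the spread between replicates, 159 moved by more and 1 changed sign: Shisa6 was at -0.00012 in the fit of all 13 libraries, where 0 genes were called. No paired analysis was possible because the labels number samples only by identifiers that the groups do not share. Genes below about 1 CPM, such as Chat and Lhx8, rest on few reads in most libraries, and intervals there are wide.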

Other observations

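The other lists given here had medians between -0.15 and 0.17 in the comparison of the control sets. Astrocyte genes had a median log2 fold change of 0.05 with 10 of 16 positive, and reactive astrocyte genes one of 0.03 with 9 of 13 positive. Endothelial genes had a median of 0.02, pericyte and smooth muscle genes one of -0.07, and oligodendrocyte precursor genes one of 0.17 with 9 of 10 positive. Neocortical neuron genes were negative in 10 of 12, against 51.2% of all genes, with a median of -0.15. At an unadjusted p under 0.05 in edgeR, 4 were lower and 0 higher, against 5.3% and 6.14% of all genes. Below the poor set without overlap lay 3, against 8%, and the median was -0.32 with a choroid plexus score as covariate. Cplx3, a complexin of deep-layer subplate neurons, was at -0.74 and Ccn2, of the same layer, at -0.66. Dentate granule neuron genes were positive in 10 of 14, with a median of 0.14. Of all these lists 0 genes were called.

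Activity-regulated genes were negative in 16 of 25 in the rich controls, with a median of -0.14 and 0 called. In the knockouts 20 of the 25 had a positive slope on Zic1, with a median of 0.21, and 6 rose at an unadjusted p under 0.05 in edgeR, against 5.55% of all genes. Fkbp5 had a knockout slope of -0.40 (SE 0.09), while in the controls it was level between the sets. Neither Fkbp5 nor any of the 25 activity-regulated genes passed adjustment in edgeR over the 7 knockouts.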
